A study of Mus musculus with 6 samples.

Results

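The guanylate-binding proteins (GBPs) and the immunity-related GTPases (IRGs) are families of GTPases induced by interferon, and 10 of their genes were examined in mouse tendon RNA. They are *Gbp2*, *Gbp3*, *Gbp5* and *Gbp7* of the GBP family, and *Irgm1*, *Irgm2*, *Igtp*, *Iigp1*, *Tgtp1* and *Tgtp2* of the IRG family. They were taken by name from the 18099 genes of the table, and because *Tgtp1* and *Tgtp2* are near-identical copies their reads were also summed. All 10 had at least 10 reads in every library and were among the 14261 genes tested. Injured Achilles tendon from neonatal mice was collected a week after transection, and each library was made from the tissue of a separate mouse. The *LysM-Cre; Ampkα1 fl/fl* group (n = 3), called the LysM-Cre group below, was compared with a control group of littermates (n = 3). The controls were *Ampkα1 fl/fl* mice, a genotype taken from the paper. Thus both groups had the operation and the floxed *Ampkα1* alleles, while only the LysM-Cre group carried Cre. *LysM-Cre* is expressed from the lysozyme M locus in myeloid cells in general, including macrophages and neutrophils, whereas the RNA came from whole tissue.

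In the presence of interferon gamma, its receptor activates the kinases JAK1 and JAK2, and transcription factors downstream of them bind gamma-activated sites. Factors such as IRF1 and IRF9 act on promoters that carry interferon-stimulated response elements. The GBPs and IRGs made in response assemble on the vacuoles of intracellular pathogens, and they do so in macrophages and also in fibroblasts and other cell types. Among the IRGs, IRGM1, IRGM2 and IGTP (also called IRGM3) reside on the cell's own membranes and regulate the family, whereas IIGP1 (IRGA6) and the TGTP proteins (IRGB6) are effectors that load onto vacuoles.

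The table gives RNA levels alone, but the sequence just upstream of the annotated start of each gene shows what the members have in common. RefSeq promoter windows of GRCm38.p6, from 250 bases before to 50 bases after the start, were available for 9 of the 10 members, with *Iigp1* not matched. The core of the interferon-stimulated response element was searched on both strands as GAAA, any 2 bases and GAAA, which reads TTTC, any 2 bases and TTTC on the other strand. It was present in 9 of the 9 members, compared to 3.76% of the 11304 tested genes with a window and 3.443% of all 32851 windows. *Gbp3* has windows for 2 starts, and the window of its second start has no match. The gamma-activated site, searched as TTCNNNGAA, was present in 6 of the 9 members and in 8.218% of the tested genes. A match is a description of letters and does not show that a factor binds there.

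In 4 members, all of them IRG genes, the gamma-activated site ends 2 bases before the response element core. These are shown first because the arrangement is shared, with the matches in capitals, each read 5′ to 3′ on the strand of the gene and ending upstream of its annotated start:
*Tgtp1*, chr11:48992279-48992358, minus strand: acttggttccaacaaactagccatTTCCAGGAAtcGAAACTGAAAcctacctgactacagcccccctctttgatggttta
*Tgtp2*, chr11:49064238-49064317, minus strand: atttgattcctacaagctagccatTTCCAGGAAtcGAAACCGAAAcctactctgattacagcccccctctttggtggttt
*Igtp*, chr11:58199476-58199555, plus strand: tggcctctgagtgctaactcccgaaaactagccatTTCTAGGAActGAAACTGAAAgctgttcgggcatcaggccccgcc
*Irgm2*, chr11:58214878-58214957, plus strand: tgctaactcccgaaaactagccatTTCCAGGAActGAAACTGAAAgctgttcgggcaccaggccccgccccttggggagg
The combined pattern, the site, any 2 bases and the core, was written after these sequences had been seen. It was searched on the strand of the gene only, so the arrangement with the core as TTTC was not counted. It was found in 5 of the 32851 windows, those of *Igtp*, *Irgm2*, *Tgtp1*, *Tgtp2* and *Gm12185*, another IRG gene. The core begins 34 bases upstream of the start in *Igtp*, 64 in *Irgm2*, 77 in *Tgtp1* and 70 in *Tgtp2*. Over their aligned windows *Igtp* and *Irgm2* were identical at 244 of 265 bases (92.08%), and *Tgtp1* and *Tgtp2* at 219 of 272 (80.51%), so these 4 matches are not independent of each other.

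The other 5 members with a window carry the core without that arrangement, and they are shown in the same way for comparison:
*Gbp2*, chr3:142620569-142620648, plus strand: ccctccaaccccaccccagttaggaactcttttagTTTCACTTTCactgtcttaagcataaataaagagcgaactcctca
*Gbp3*, chr3:142559964-142560043, plus strand: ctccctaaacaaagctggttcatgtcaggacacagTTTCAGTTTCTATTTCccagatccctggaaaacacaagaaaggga
*Gbp5*, chr3:142496734-142496813, plus strand: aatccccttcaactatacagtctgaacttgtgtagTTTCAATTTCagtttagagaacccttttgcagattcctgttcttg
*Gbp7*, chr3:142530248-142530327, plus strand: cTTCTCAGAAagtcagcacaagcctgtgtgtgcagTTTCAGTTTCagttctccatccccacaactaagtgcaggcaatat
*Irgm1*, chr11:48871421-48871500, minus strand: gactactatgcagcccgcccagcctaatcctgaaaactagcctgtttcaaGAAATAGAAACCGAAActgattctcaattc
In *Gbp3* and *Irgm1*, 2 matches to the core overlap by 4 bases. For *Gbp3*, distances are from the start used for its window. The annotated gene begins at 142560016, so its printed stretch ends inside the gene. In the 4 GBP genes the core lies in the TTTC orientation, and its matches begin from 39 bases upstream of the start in *Gbp3* to 165 bases in *Gbp5*. In *Gbp7* a gamma-activated site lies within the printed stretch, 25 bases before the core, and another begins 106 bases upstream. *Gbp5* has gamma-activated sites beginning 245 and 52 bases upstream, both outside the printed stretch. *Gbp2*, *Gbp3* and *Irgm1* had no match to that site in these windows.

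**Figure D1:**
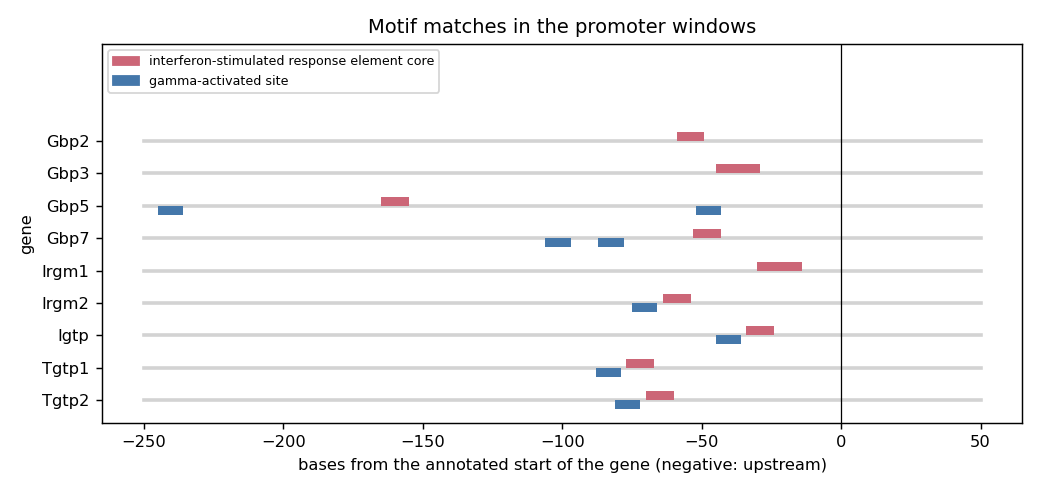
Positions of motif matches in the promoter windows of 9 members, in bases from the annotated start of the gene (negative values are upstream). Red blocks are matches to the interferon-stimulated response element core and blue blocks are gamma-activated sites; all 9 genes have a red block, and in *Igtp*, *Irgm2*, *Tgtp1* and *Tgtp2* a blue block lies 2 bases before it.

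Total reads ranged from 18170082 to 18858366 in the control libraries and from 18076805 to 19479880 in the LysM-Cre libraries. *Prkaa1*, which encodes AMPKα1, had a log2 fold change of -0.08 (edgeR adjusted p = 0.744) in the whole tissue, so it does not check the labels. *Lyz2*, at the locus where Cre is inserted, had between 7372 and 7778 reads in the control libraries and between 8 and 15 in the others. Every library thus matched its label for Cre, while the loss of *Ampkα1* was not checked by these RNA levels. The groups also differed in *Lyz2* itself, and for the members this cannot be told apart from the loss of *Ampkα1*. Macrophage markers were present in every library, with summed levels of 943 to 982 CPM in the control group and 684 to 839 CPM in the LysM-Cre group. Markers of tendon and its fibroblasts summed to between 92209 and 109398 CPM in all 6 libraries. Here CPM is the reads scaled to library size by TMM, and every fold change is that of the LysM-Cre group relative to the control group.

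Compared to the control group, all 10 members were higher in the LysM-Cre group, with log2 fold changes from 0.65 in *Gbp7* to 3.57 in *Tgtp1*. For each of the 10, the lowest LysM-Cre library lay above the highest control library, which was true of 8.94% of all genes tested. The median log2 fold change of the members was 1.23, beside -0.002 over all genes. In the quasi-likelihood test of edgeR 0 of 10 passed an adjusted p of 0.05 (values from 0.0508 in *Irgm2* to 0.195 in *Gbp7*), where 0.33% of all genes were called higher. At an unadjusted p under 0.05 the same test passed 10 of 10, compared to 5.97% of all genes in this direction. With DESeq2, 10 of 10 had an adjusted p under 0.05 (2.08% of genes were called higher), the largest being 0.0252 in *Gbp7*. By the exact permutation test, two-sided, p was 0.1 for every member, which is the smallest value that 3 libraries against 3 can give. The count of calls depended on single libraries, with 10 members called without LysM-Cre replicate 2 (0.964% of genes higher) and 2 (*Iigp1* and *Tgtp2*) without replicate 3 (0.139%). It was 3 with at least 10 reads in every library (0.467%) and 3 with no filter (0.288%), in both cases *Iigp1*, *Irgm2* and *Tgtp2*. It was 1 with upper-quartile scaling (*Irgm2*, 0.302%) and 0 with the replicate block (0.0771%). In RNA of whole tissue, more cells that express a gene and more RNA per cell cannot be told apart.

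**Figure D2:**
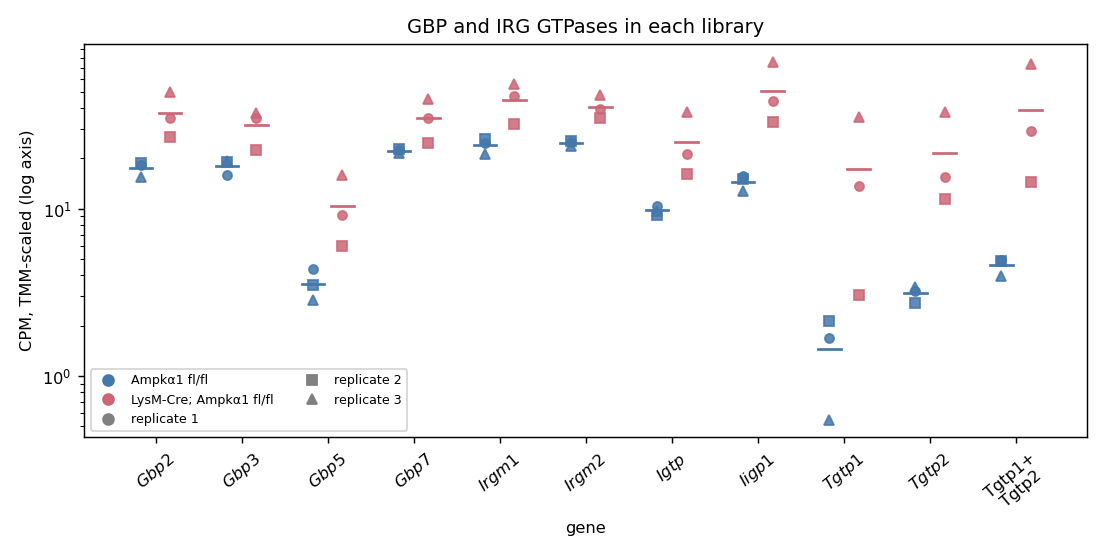
CPM scaled by TMM (log axis) of the 10 members and of *Tgtp1* and *Tgtp2* summed, in 3 control libraries (blue) and 3 *LysM-Cre; Ampkα1 fl/fl* libraries (red); the symbol marks the replicate and the line the group mean. For every gene the red points lie above the blue points, and replicate 3 is the highest red point.

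Per length, as TPM, the control levels of the members spanned a wide range. *Irgm1* was highest, at 26.2 ± 2.18 TPM (SD, n = 3), above *Gbp2*, *Irgm2* and *Gbp3*, whose means lay between 14.8 and 16.2 TPM and whose libraries overlapped. *Igtp* at 11.4 ± 0.975 TPM (SD, n = 3) and *Iigp1* at 10.4 ± 1.18 TPM (SD, n = 3) overlapped as well, and *Gbp7* followed at 8.38 ± 0.217 TPM (SD, n = 3). *Gbp5* and *Tgtp2*, at 2.62 and 2.51 TPM, did not differ beyond their spread, and *Tgtp1* was lowest at 1.15 TPM. In the LysM-Cre group *Irgm1* was again highest, at 48.6 ± 11.5 TPM (SD, n = 3), and *Gbp5* lowest, at 7.58 ± 3.55 TPM (SD, n = 3), but here each gene overlapped with its neighbours in the order. *Iigp1* stood second in this group, at 36.7 ± 15.1 TPM (SD, n = 3). Summed, *Tgtp1* and *Tgtp2* had 3.65 ± 0.415 TPM (SD, n = 3) in the control group and 30.9 ± 23.7 TPM (SD, n = 3) in the LysM-Cre group.

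The effector IRGs had the largest differences. *Iigp1* (NCBI Gene 60440), whose protein helps disrupt pathogen vacuoles, was at 15.7, 15.0 and 12.8 CPM in the 3 control libraries and at 44.1, 33.0 and 75.7 CPM in the LysM-Cre libraries. All 3 of the latter were above the controls, which lay close together. The log2 fold change was 1.81 (SE 0.30, edgeR adjusted p = 0.053).

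*Tgtp2* (NCBI Gene 100039796) was at 3.23, 2.73 and 3.40 CPM in the control libraries and at 15.4, 11.5 and 38.2 CPM in the LysM-Cre libraries, a log2 fold change of 2.79 (SE 0.47, edgeR adjusted p = 0.0547). *Tgtp1* (NCBI Gene 21822) was at 1.69, 2.13 and 0.548 CPM and at 13.7, 3.03 and 35.5 CPM, respectively, a log2 fold change of 3.57 (SE 0.92, edgeR adjusted p = 0.142). Its LysM-Cre libraries differed by a factor of 11.7, the widest range of any member, and its lowest, replicate 2, lay close to the controls. The coding sequences of *Tgtp1* and *Tgtp2* were identical at 1244 of 1248 bases (99.68%), and 83.3% of the 100-base windows of the *Tgtp1* transcript occur unchanged in *Tgtp2* or in *Gm12185*. Reads could therefore have been split between the copies. Of the reads given to either, between 13.9% and 48.2% per library were given to *Tgtp1*, and this share was low in control replicate 3 and LysM-Cre replicate 2. The values of each copy alone are thus uncertain.

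Their sum does not depend on that split, except for reads that *Gm12185* could share. It was 93, 89 and 72 reads in the control libraries and 558, 268 and 1362 reads in the LysM-Cre libraries, or 4.58 ± 0.546 and 39.1 ± 30.8 CPM (SD, n = 3). All 3 LysM-Cre libraries were above the controls, but replicate 3 alone had 5.08 times the level of replicate 2. The log2 fold change of the sum was 3.09 (SE 0.59, edgeR adjusted p = 0.076), and without LysM-Cre replicate 3 it was 2.25. Without replicate 2 it was 3.49, with an edgeR adjusted p of 0.027.

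The regulatory IRGs differed less than the effectors. *Irgm1* (NCBI Gene 15944), which protects the cell's own organelles from the effectors, was at 24.6, 26.1 and 21.2 CPM in the control libraries and at 47.2, 32.3 and 55.4 CPM in the LysM-Cre libraries. The log2 fold change was 0.91 (SE 0.19, edgeR adjusted p = 0.098). *Irgm2* (NCBI Gene 54396), a Golgi-associated relative, was at 25.2, 25.4 and 23.9 CPM and at 39.5, 35.0 and 47.6 CPM, respectively, and had the smallest ratio of the highest to the lowest library within the LysM-Cre group among the members (1.36). The log2 fold change of *Irgm2* was 0.71 (SE 0.12, edgeR adjusted p = 0.0508). *Igtp* (NCBI Gene 16145), found on the endoplasmic reticulum, was at 10.4, 9.12 and 9.76 CPM and at 21.2, 16.2 and 37.8 CPM, respectively. The *Igtp* groups were far apart, with a log2 fold change of 1.36 (SE 0.30, edgeR adjusted p = 0.107). *Igtp* and *Irgm2* share 5.67% and 2.48% of their 100-base windows, so few reads could be exchanged between them.

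The effectors *Iigp1*, *Tgtp1* and *Tgtp2* had a median log2 fold change of 2.79 and the regulators *Irgm1*, *Irgm2* and *Igtp* of 0.91. In each library the effectors, with *Tgtp1* and *Tgtp2* summed and counted as 1 gene beside *Iigp1*, were set against the regulators by mean log2(CPM + 0.5). The effectors were lower by 1.03, 1.04 and 1.19 in the 3 control libraries on this log2 scale. In LysM-Cre replicates 1, 2 and 3 the difference was 0.07, -0.26 and 0.68. The effectors were thus lower than the regulators in all 3 control libraries by more than in any LysM-Cre library. This grouping was made after the members' values were seen, and no test was made of it.

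Among the GBPs, *Gbp5* (NCBI Gene 229898), which takes part in inflammasome assembly, had the largest difference and the lowest level. It was at 4.34, 3.50 and 2.85 CPM in the control libraries and at 9.18, 5.95 and 15.9 CPM in the LysM-Cre libraries. The log2 fold change was 1.54 (SE 0.37, edgeR adjusted p = 0.127). *Gbp2* (NCBI Gene 14469), which binds to pathogen vacuoles and to bacteria in the cytosol, was at 18.2, 18.7 and 15.4 CPM and at 35.1, 26.9 and 50.2 CPM, respectively. The groups of *Gbp2* did not overlap, and its log2 fold change was 1.10 (SE 0.22, edgeR adjusted p = 0.0869).

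*Gbp3* (NCBI Gene 55932) was at 15.9, 19.1 and 19.2 CPM in the control libraries and at 34.7, 22.3 and 37.6 CPM in the LysM-Cre libraries. *Gbp7* (NCBI Gene 229900) was at 22.5, 22.7 and 21.7 CPM and at 35.1, 24.9 and 45.1 CPM, respectively. In both genes LysM-Cre replicate 2 was only slightly above the highest control library. The log2 fold change was 0.80 (SE 0.20, edgeR adjusted p = 0.129) in *Gbp3* and 0.65 (SE 0.20, edgeR adjusted p = 0.195) in *Gbp7*. Their coding sequences were identical at 79.5% of aligned bases, and 0.95% of the 100-base windows of *Gbp3* occur in *Gbp7*. The 4 GBP members had a median log2 fold change of 0.95 and the 6 IRG members of 1.58.

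The members followed the same order among the LysM-Cre libraries. Replicate 3 was highest, replicate 1 next and replicate 2 lowest in 10 of 10 members, an order seen in 19.9% of all genes tested. The ratio of the highest to the lowest library was wider in the LysM-Cre group than in the control group for all 10. In the control group, replicate 3 was lowest in 7 of the 10. For these 2 counts no share over all genes is given, so they cannot be read as traits of the members. Without LysM-Cre replicate 3, the median log2 fold change of the members was 0.88. That 10 of 10 were still higher follows from groups that did not overlap.

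Markers of other cell types were set beside this order. The 15 skeletal muscle markers had mean log2 levels of 2.97, 4.27 and 6.87 in control replicates 1, 2 and 3 and of 7.16, 4.97 and 8.34 in LysM-Cre replicates 1, 2 and 3. Muscle RNA thus had the members' order among the LysM-Cre libraries. Between the groups, 15 of 15 muscle markers were higher with Cre. Their log2 fold changes had 1.81 as the median, larger than the 1.23 of the members. In edgeR 0 of the 15 had an adjusted p under 0.05 and 1 an unadjusted p under 0.05. Groups that did not overlap were seen in 0 of the 15 markers. Control replicate 3 had a muscle score of 6.87 and a summed member level of 131 CPM, and LysM-Cre replicate 1 had 7.16 and 295 CPM. The part of muscle RNA in the members' difference was not tested with these single libraries. With the muscle score as a covariate in edgeR, all 10 members were still higher, with log2 fold changes from 0.40 in *Gbp7* to 2.11 in *Tgtp1*. Of these, 8 had an unadjusted p under 0.05 in that fit (*Gbp7* and *Tgtp1* did not), beside 5.15% of all genes in this direction, and 0 an adjusted p under 0.05, beside 0.182% of genes called higher in it. In this fit the log2 fold changes of *Gbp3* (0.49), *Gbp7* and *Tgtp1* were smaller by a factor of over 1.5. Because the muscle markers were themselves higher in the LysM-Cre group, the fit does not test the part of muscle RNA.

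The 4 Y-linked genes measured (*Kdm5d*, *Uty*, *Ddx3y* and *Eif2s3y*) also had groups that did not overlap. Their summed level was 41.7 to 61.2 CPM in the control group and 89.1 to 136 CPM in the LysM-Cre group, and the median of their log2 fold changes was 1.15. In edgeR 0 of the 4 had an adjusted p under 0.05 (smallest 0.0547). At an unadjusted p under 0.05 in edgeR 4 of 4 were higher, beside 5.97% of all genes. Under the replicate block 3 passed an adjusted p of 0.05 in edgeR, and DESeq2 called 4. A difference in the sex of the tissue between the groups and the difference in genotype cannot be told apart for the members.

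Of the 11 macrophage markers 8 were lower and 3 higher, with a median log2 fold change of -0.24. *Adgre1*, which encodes F4/80, had a log2 fold change of -0.52 (edgeR adjusted p = 0.0508) and *Csf1r*, the receptor for macrophage colony-stimulating factor, of -0.64 (edgeR adjusted p = 0.0933). In edgeR 0 of the 11 had an adjusted p under 0.05, and DESeq2 called 2. At an unadjusted p under 0.05 in edgeR 4 were lower, beside 1219 of all 14261 genes. At that level 1, *Mertk* (log2 fold change 0.21), was higher, beside 852 of all genes. The summed level of the macrophage markers was thus lower in each LysM-Cre library than in any control library, whereas that of the members was higher. Markers of T cells and NK cells summed to 10.1 to 13.2 CPM in the control group and 9.57 to 10.5 CPM in the LysM-Cre group, and 2 of the 12 had enough reads to be tested. The 6 endothelial markers were all lower, with 0 called in edgeR, 2 at an unadjusted p under 0.05 and 1 called in DESeq2. Of the 8 neutrophil markers 6 were tested, of which 5 were higher and 1 lower, with a median log2 fold change of 0.74. The groups overlapped in all 6. Of these 0 were called by edgeR or DESeq2, with 0 at an unadjusted p under 0.05 in edgeR. Of the 5 B cell markers 1 was tested, *Cd79b*, with a log2 fold change of -0.80 (edgeR adjusted p = 0.177). Among 9 tendon and fibroblast genes *Dcn*, which encodes decorin, was called lower in edgeR (log2 fold change -0.45, adjusted p = 0.0301), and 0 were called with the replicate block. The part of any of these cell types in the members' difference was not tested.

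**Figure D3:**
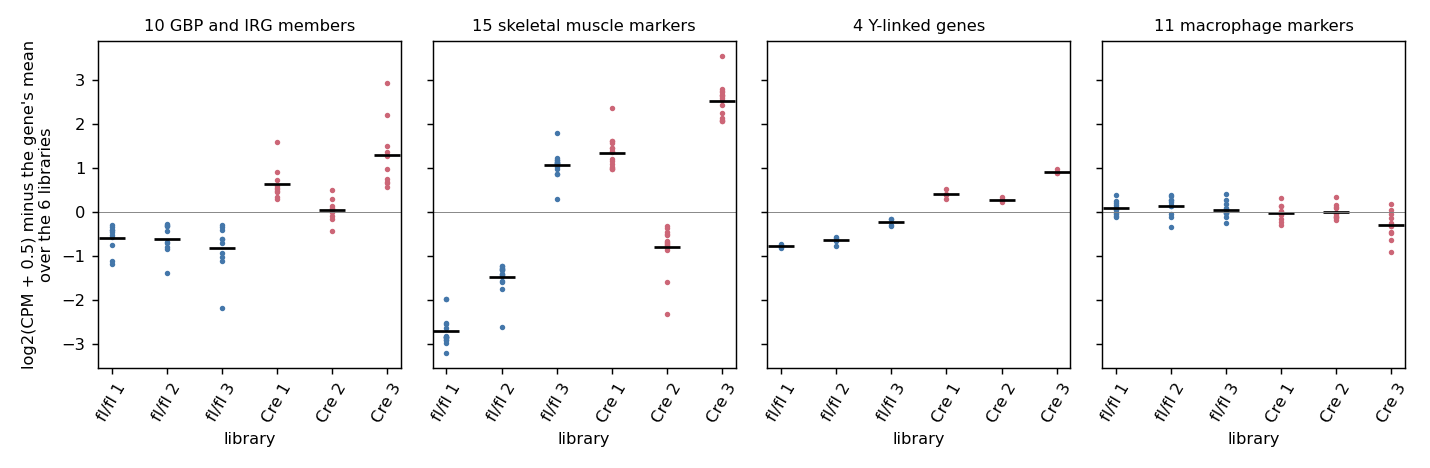
Level of each gene in each library as log2(CPM + 0.5) minus the gene's mean over the 6 libraries, for the 10 members, 15 skeletal muscle markers, 4 Y-linked genes and 11 macrophage markers. On the library axis fl/fl marks control libraries (blue) and Cre marks LysM-Cre libraries (red), each with its replicate number. Points are genes and black bars their mean. The members are low in all 3 control libraries, and the muscle markers vary widely among the libraries of each group.

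Other GTPases of these families differed in the same direction. Of 18 listed genes with values, 14 were tested, of which 11 were higher and 3 lower, with a median log2 fold change of 0.81. In edgeR 0 of the 14 had an adjusted p under 0.05, 9 had an unadjusted p under 0.05 and were higher (5.97% of all genes), and DESeq2 called 5. *Gm12250*, which encodes IRGB10, was at 1.43, 1.64 and 1.04 CPM in the control libraries and at 4.07, 2.76 and 6.49 CPM in the LysM-Cre libraries. Its log2 fold change was 1.69 (SE 0.36, edgeR adjusted p = 0.0936), within the range of the members. *Gbp4* had a log2 fold change of 1.56 (edgeR adjusted p = 0.156), *Gbp6* of 1.43 (edgeR adjusted p = 0.129) and *Gvin1*, a giant interferon-inducible GTPase, of 1.16 (edgeR adjusted p = 0.185). The 4 genes not tested for low counts were *Gbp2b*, *Gbp10*, *Gm12185* and *Irgc1*, with at most 41 reads in any library.

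**Figure D4:**
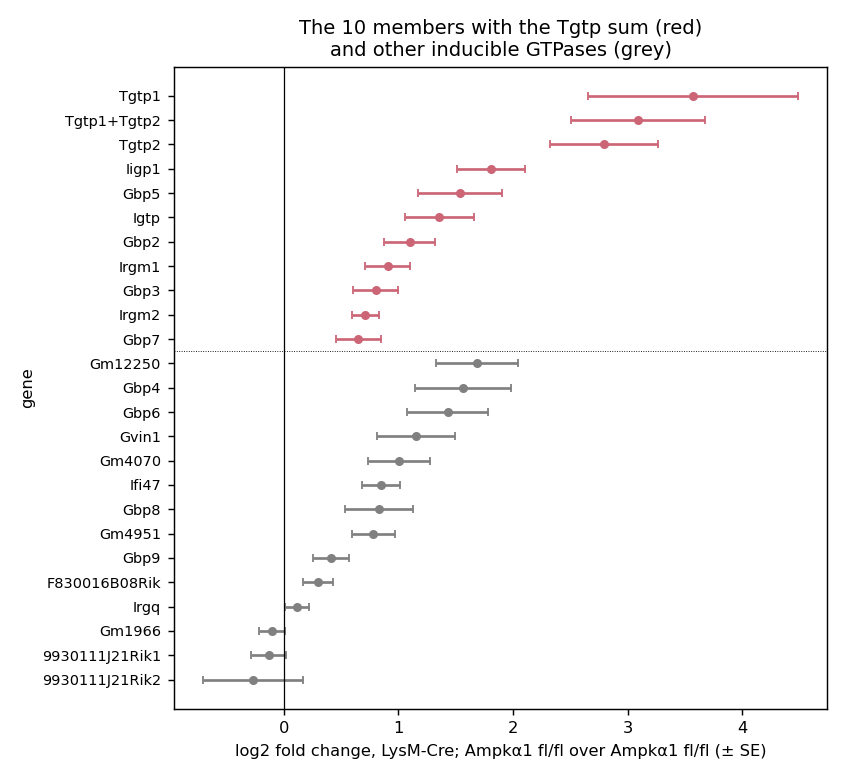
Log2 fold change, *LysM-Cre; Ampkα1 fl/fl* over control, with its SE from edgeR (horizontal bars), for the 10 members and the sum of *Tgtp1* and *Tgtp2* (red) and for 14 other GTPases (grey). All red points lie above 0, from 0.65 to 3.57, and 11 of the 14 grey points do.

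The steps that lead to these genes were examined in order. *Ifng*, which encodes interferon gamma, had between 0 and 2 reads per library and could not be compared at this depth. The genes of its receptor differed little, with log2 fold changes of -0.08 in *Ifngr1* (edgeR adjusted p = 0.665) and 0.11 in *Ifngr2* (edgeR adjusted p = 0.386), and those of the kinases were 0.05 in *Jak1* and 0.02 in *Jak2*. *Stat2* had a log2 fold change of 0.52 (edgeR adjusted p = 0.123), *Irf9* of 0.35 (edgeR adjusted p = 0.216) and *Irf1* of 0.26 (edgeR adjusted p = 0.261). *Irf8*, a factor of the myeloid lineage, was at -0.05 (edgeR adjusted p = 0.897).

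*Nlrc5*, the transactivator of MHC class I genes, was the only gene of this list that passed edgeR's test. It was at 5.66, 5.90 and 5.32 CPM in the control libraries and at 12.4, 11.2 and 15.4 CPM in the LysM-Cre libraries, a log2 fold change of 1.21 (SE 0.15, edgeR adjusted p = 0.023). Under the replicate block edgeR gave an adjusted p of 0.0611, so this call was lost. Among the inhibitors, *Socs1* had a log2 fold change of -0.24 (edgeR adjusted p = 0.676) and *Usp18* of 1.14 (edgeR adjusted p = 0.232). *Batf2*, a partner of IRF1, was at 0.66 (edgeR adjusted p = 0.412). Over the 21 genes tested of this list, 16 were higher and 5 lower, and the median log2 fold change was 0.05. Of the 21, 6 had an unadjusted p under 0.05 in edgeR and were higher, beside 5.97% of all genes.

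The 14 other interferon-induced genes tested were all higher, with a median log2 fold change of 0.58. In edgeR 0 had an adjusted p under 0.05, 9 had an unadjusted p under 0.05 (5.97% of all genes in this direction), and DESeq2 called 6. The groups did not overlap in 9 of the 14, beside 8.94% of all genes. In *Rsad2*, LysM-Cre replicate 2 (3.41 CPM) lay below every control library. The chemokine gene *Cxcl10* had a log2 fold change of 1.70 (edgeR adjusted p = 0.0757), *Ifit3* of 1.65 (edgeR adjusted p = 0.143), *Ifi44* of 1.47 (edgeR adjusted p = 0.0914) and *Cd274*, which encodes PD-L1, of 1.16 (edgeR adjusted p = 0.119). These values lie within the range of the members. By contrast, the 21 tested genes of proteins that work with the GTPases, such as autophagy adaptors and inflammasome components, comprised 13 higher and 8 lower, and the median log2 fold change was 0.08. In edgeR 0 were called, 3 had an unadjusted p under 0.05 and were higher, and DESeq2 called 1. *Aim2*, a sensor of DNA in the cytosol, was at -0.40 (edgeR adjusted p = 0.404), *Casp4*, which encodes caspase-11, at 0.32 (edgeR adjusted p = 0.336), *Sqstm1* at 0.28 (edgeR adjusted p = 0.298) and *Il18* at -0.27 (edgeR adjusted p = 0.626).

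**Figure D5:**
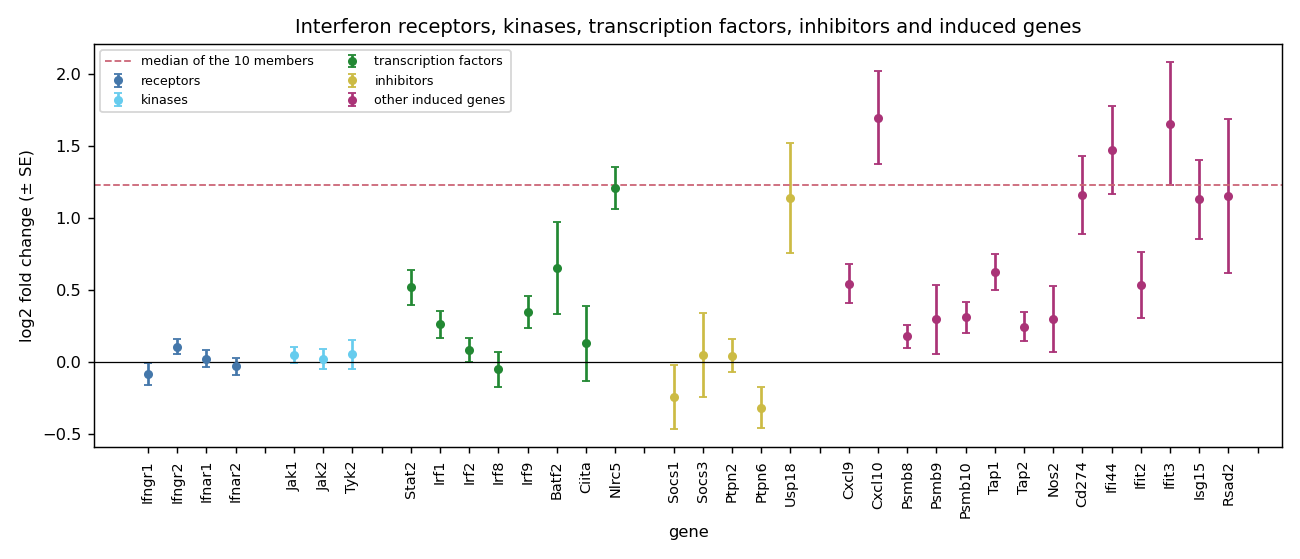
Log2 fold change, *LysM-Cre; Ampkα1 fl/fl* over control, with its SE from edgeR for tested genes of interferon receptors, kinases, transcription factors, inhibitors and other induced genes; the dashed line is the median of the 10 members, 1.23. The receptors and kinases lie near 0, *Nlrc5* at 1.21, and the 14 induced genes all above 0.

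The members lie in 4 places of the GRCm38.p6 annotation. *Gbp5*, *Gbp7*, *Gbp3* and *Gbp2* lie within 141.1 kb of chromosome 3 (142496934 to 142638008). *Irgm1*, *Tgtp1* and *Tgtp2* lie within 199.0 kb of chromosome 11 (48865245 to 49064212), and *Igtp* and *Irgm2* within 23.2 kb of the same chromosome (58199556 to 58222783). *Iigp1* lies on chromosome 18 (60373616 to 60392634). Within these spans and 200 kb on either side, 24 other genes outside the GTPase list were tested, with a median log2 fold change of 0.06. In edgeR 0 of them had an adjusted p under 0.05. At an unadjusted p under 0.05 there were 3, *Pdlim5*, *Zfp672* and *Gm4841*, all higher, beside 5.97% of all genes in that direction. They are named because their values had been seen. *Gm4841*, next to *Iigp1*, was at 2.03 (edgeR adjusted p = 0.139). It was not on the list of GTPases, and whether it belongs to these families was not checked.

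The genes outside all lists with the profile most like the members' mean over the 6 libraries were *Klhl38*, *Trhr2*, *Cd200r4*, *Oasl2* and *Ogdhl*. Their root mean square distances from it were 0.15, 0.26, 0.32, 0.32 and 0.33 on the log2 scale. *Oasl2*, an interferon-induced gene, was at 21.9, 27.5 and 24.7 CPM in the control libraries and at 55.2, 34.5 and 57.3 CPM in the LysM-Cre libraries. *Klhl38* was near 1 CPM or below in the control group, so its profile rests on few reads.

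The response element core was also set against the other genes of the table. Of the 425 tested genes with the core in a window, 12.235% had an unadjusted p under 0.05 in edgeR and were higher, compared to 5.442% of the 10879 genes without it. With the genes of all lists left out, the share was 9.383% of 405. The shares that were lower, 8.471% and 8.19%, were close to each other. No test was made of these shares.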

How the data were processed

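Total RNA of injured tendon tissue was sequenced on the BGISEQ platform for 3 control littermates and 3 *LysM-Cre; Ampkα1 fl/fl* mice (the LysM-Cre group). For each of 65053 RefSeq transcripts and each library, the authors deposited estimated counts, which are not normalized, and TPM, scaled by the authors for transcript length and library total. The authors also deposited FPKM and a normalized count, a signal equal to the estimated count times a factor per library; neither these nor the 8 group averages entered the results. The submitters' processing notes name GRCm38.p6. The aligner and counting tool are not given in the sources used here.

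Estimated counts were summed per gene and rounded, and 18049 of 18099 genes were matched to symbols by NCBI Gene identifier. Group differences were fitted with edgeR 4.0.16 under R 4.3.3 (TMM, filterByExpr, quasi-likelihood F test, Benjamini-Hochberg over 14261 genes, threshold 0.05), after the same steps had been tested on simulated data. Single members were also compared by an exact permutation test, two-sided, of log2(CPM + 0.5). The alternatives were DESeq2 1.42.0, RLE and upper-quartile scaling, other filters, limma 3.58.1 on log2(TPM + 0.5), single transcripts, the replicate block, the muscle score and leaving out each library. Deviations of same-numbered libraries from their group means had correlations across genes of 0.184, 0.118 and 0.310 for replicates 1, 2 and 3. Control replicate 1 correlated more with LysM-Cre replicate 2 (0.500), so these values do not establish a pairing. The numbers come from the labels. The main fit left the libraries unpaired, and the replicate block, which pairs them by number, was an alternative.

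The members and lists were chosen with earlier results of these data known. Named were all 10 members, up to 4 genes of each other list with the largest change, the main interferon gamma genes, *Prkaa1*, *Lyz2* and the 5 genes closest in profile with a mean of at least 1 CPM; cell type lists are given by counts with single examples. At these depths a gene with 3 reads or fewer is at the floor; counts cover counting error only. Shared sequence between genes was computed from GENCODE M21 transcripts of GRCm38. For 1 gene of the interferon pathway list, which is included in the counts, values are not reported here.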

Additional observations from a re-analysis of the deposited data

How the results depend on the processing

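The direction of all 10 members was the same under the 14 alternatives fitted per gene (140 of 140 values). The groups did not overlap in any member, so leaving out a library could not reverse a direction. These values are therefore no separate support. Of the 140, 29 passed an adjusted p of 0.05. DESeq2 and the fit without LysM-Cre replicate 2 gave 10 each, and they called 2.08% and 0.964% of all genes higher. The number of members called, 0 in edgeR, was 10 with DESeq2, 3 (*Iigp1*, *Irgm2* and *Tgtp2*) both with at least 10 reads in every library and with no filter, 1 (*Irgm2*) with upper-quartile scaling, and 0 to 10 when a library was left out. Other GTPases called went from 0 to 5 with DESeq2 and 0 to 4 when a library was left out. Interferon pathway genes called went from 1 to 4 with DESeq2, 0 with the muscle score and 0 with the replicate block, and were 0 to 3 when a library was left out. The median log2 fold change of the members, 1.23, ranged from 0.88 to 1.44 when a library was left out. For *Tgtp1* and *Tgtp2* summed, the log2 fold change of 3.09 was 3.10 with DESeq2 (adjusted p = 0.000224) and 2.25 to 3.49 when a library was left out. The cause of these changes was not tested. The replicate block left the members called at 0 (smallest edgeR adjusted p = 0.0525) and the median log2 fold change at 1.17, and the sum of *Tgtp1* and *Tgtp2* at 2.80 (edgeR adjusted p = 0.0929). Among the listed genes it ended the calls of *Nlrc5* and *Dcn* and added calls of 3 Y-linked genes. Over all genes, the calls numbered 128 in edgeR, 685 with DESeq2, 47 with the block, 74 with the muscle score, 69 with limma on TPM, 1 with single transcripts, and 8 to 276 when a library was left out. Depth limits *Ifng*, the T cell and NK cell markers and, in the control group, *Tgtp1*.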
